A study of Mus musculus with 14 samples.

Results

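Collagens, laminins and other basement membrane genes were followed in whole lungs of 6-day-old mice that lack Atxn1l or Atxn1. The group held 40 genes, chosen by name as the collagen chains, laminin chains and basement membrane proteins of the table: 23 collagen chains, 9 laminin chains, 4 nidogen or heparan sulfate proteoglycan genes, and nephronectin with the Fras1 family (4 genes). All 40 had a probe set among the 21212 probe sets measured, 38 named in the platform's gene table and the other two, Col6a3 and Col12a1, by their Entrez number.

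Total RNA of dissected lung was hybridised to 14 arrays (Affymetrix mouse Gene ST version 1), 1 array per sample. The groups were 4 Atxn1L -/- mice with 4 wild types and 3 Atxn1 -/- mice with 3 wild types, all labelled C57BL/6J and taken at postnatal day 6. The mice were offspring of heterozygous parents and were taken in wild type and knockout pairs. Which arrays belong to a pair, and the sex and litter of each mouse, are not in the labels. The series text writes Atxn1 for both sets of pairs, and the genotype labels, which separate Atxn1L from Atxn1, were followed here.

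The products of Atxn1 and Atxn1l are partners of Capicua, a repressor of transcription, and the comparison of each knockout with wild type asks how lung transcripts differ without that partner. Basement membranes are thin sheets of matrix under epithelium and endothelium. Laminin trimers polymerise at the cell surface, type IV collagen forms another network, and nidogens, perlecan and agrin join the networks and bind growth factors. In the alveolar wall the sheets of epithelium and capillary fuse, and the fibrillar collagens, chiefly types I and III, carry tension in the septa that form after birth.

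Values are log2 RMA levels, a scale on which a difference of 1 is a doubling of the hybridisation signal. The sets of arrays were normalised apart, so limma compared each knockout within its own set, and a gene is called changed at a Benjamini-Hochberg adjusted p under 0.05 over all probe sets. Levels are not compared between genes, since probe sets differ in affinity. In a whole organ, fewer cells of a type and less RNA per cell cannot be told apart. The samples are labelled as separate mice of a group, and p-values measure the spread between these samples only.

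The targeted gene Atxn1l was at 6.68, 6.93, 7.05 and 6.79 on the Atxn1l knockout arrays and at 9.59, 9.43, 9.29 and 9.47 on the wild types, a log2 change of -2.58 (limma, SE 0.09, adjusted p = 1.18e-06). Atxn1 itself differed by 0.01 (SE 0.07) in the Atxn1 knockout. Whether its probes fall within the deletion is unknown, so this value does not check that genotype. Each array correlated across all probe sets at r of 0.994 or more with the closest other array of its set. Marker lists were measured in 6 of 6 genes for alveolar type 1 and type 2 cells, endothelium, matrix fibroblasts, smooth muscle with pericytes, macrophages and neutrophils. Alveolar type 2 markers, defining for lung, had mean levels of 12.90 or more on every array. The lists that separated groups were macrophage markers, at 9.49 to 10.17 in Atxn1l knockouts against 9.19 to 9.30 in their wild types, neutrophil markers, at 8.83 to 10.81 against 7.94 to 8.81, alveolar type 1 markers, at 12.32 to 12.34 in Atxn1 knockouts against 12.24 to 12.27, and erythroid markers (3 of 5 measured), at 10.28 to 10.32 in Atxn1l knockouts against 10.34 to 10.53 and at 11.36 to 11.61 in Atxn1 knockouts against 11.00 to 11.31. The means of the smooth muscle, matrix fibroblast and endothelial lists overlapped between knockouts and wild types in both sets. Of their genes only the endothelial Emcn did not overlap, with a mean of 12.03 in Atxn1l knockouts against 12.22 in their wild types. RMA gives no level of 0, so absence of a marker cannot be read from these values.

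The type IV collagens show how closely some members are tied in the genome. Collagen IV is built from chains whose genes lie in pairs, head to head, and the start sites used for the Col4a1 and Col4a2 windows lie 21 bases apart on opposite strands in RefSeq's annotation of GRCm38.p6, where other transcripts of a gene can start elsewhere. Their promoter windows (250 bases before the start to 50 after) are shown because they overlap. Capitals mark the 78 bases that both windows share, at chr8:11312777-11312854, read from opposite strands. The Col4a1 window is chr8:11312777-11313076 on the minus strand and the Col4a2 window chr8:11312555-11312854 on the plus strand.
Col4a1: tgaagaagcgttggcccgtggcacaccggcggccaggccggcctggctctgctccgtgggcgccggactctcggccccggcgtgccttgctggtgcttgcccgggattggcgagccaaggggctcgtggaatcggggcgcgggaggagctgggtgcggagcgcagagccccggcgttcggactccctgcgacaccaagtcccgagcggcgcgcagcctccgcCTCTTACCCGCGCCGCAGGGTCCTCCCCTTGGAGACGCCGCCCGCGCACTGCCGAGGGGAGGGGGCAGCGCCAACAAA
Col4a2: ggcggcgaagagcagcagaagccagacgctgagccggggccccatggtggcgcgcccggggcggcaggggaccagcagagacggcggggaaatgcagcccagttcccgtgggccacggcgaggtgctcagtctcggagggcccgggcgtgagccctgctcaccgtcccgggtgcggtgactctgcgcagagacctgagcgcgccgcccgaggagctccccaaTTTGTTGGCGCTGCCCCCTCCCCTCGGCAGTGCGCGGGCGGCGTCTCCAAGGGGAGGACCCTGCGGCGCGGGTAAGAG
The windows held 74.0% and 73.7% G and C, above the median of 61.0% over the 35 windows of the 29 members present in the RefSeq table and 52.7% over all 32851 windows. The start sites of the Col4a5 and Col4a6 windows on the X chromosome lie 1343 bases apart and their windows share no base.

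The octamer bound by Capicua, searched as TGAATGAA, TGAATGGA, TCAATGAA and TCAATGGA on both strands, was in 0 of the 35 windows of members and in 3.84% of all windows. A heptamer of PEA3 ETS factors, AGGAAGT on either strand, was in 4 of the 35 windows (11.4%) and in 9.35% of all. The windows with the heptamer were those of Col4a4, Lamb2, Lama2 and Col6a1. The octamers and the heptamer share stretches of at most 3 letters, and each was counted on its own. No window was at hand for Col12a1, Col14a1, Col1a1, Col4a3, Col5a2, Fras1, Lama1, Lama3, Lama4, Lamc1 or Nid2.

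No member passed the threshold in either knockout, and the changes were small. In lungs without Atxn1l, 0 of 40 members were called, against 0.0236% of all probe sets called higher and 0.0189% called lower (5 and 4 of 21212). The lowest adjusted p of a member was 0.124, for Lama1. The log2 changes of members ran from -0.10 (Npnt) to 0.46 (Lama1), with a median of 0.06, and 35 of 40 were above 0, against 51.3% of all probe sets, whose median was 0.00. At an unadjusted p under 0.05 there were 2 members, both higher (of 40, against 4.54% of all probe sets), and 0 lower (3.95% of all). With each array centred on its median, 696 probe sets were higher and 1411 lower at that p, against 964 and 838 without centring, and the member counts were again 2 higher and 0 lower, with 32 of 40 above 0, against 8231 of 21212 probe sets, and a median of 0.03. With array weights 4 members were higher and 0 lower at that p, with 1050 and 1129 of all probe sets, and the median was 0.10.

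In lungs without Atxn1, 0 of 40 members were called, as were 0.0% of all probe sets in either direction, with 1 member (2.50%) at an unadjusted p under 0.05, higher, against 0.75% of all, and 0 lower against 0.467% of all. With array weights these counts were 17 members higher and 1 lower, with 2384 and 1747 of all probe sets, and the member median was 0.07. Those weights leaned on wild type replicate 3, at 6.38, against 0.16 to 1.47 on the other arrays. Without weights the changes ran from -0.25 (Lama1) to 0.18 (Fras1), with a median of 0.03, and 30 of 40 lay above 0, against 47.3% of all probe sets. The 95% intervals set the bound on what these arrays can show. They lay within 0.5 of 0 on the log2 scale for 39 of 40 members in each knockout, Lama1 being the exception in both.

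**Figure D1:**
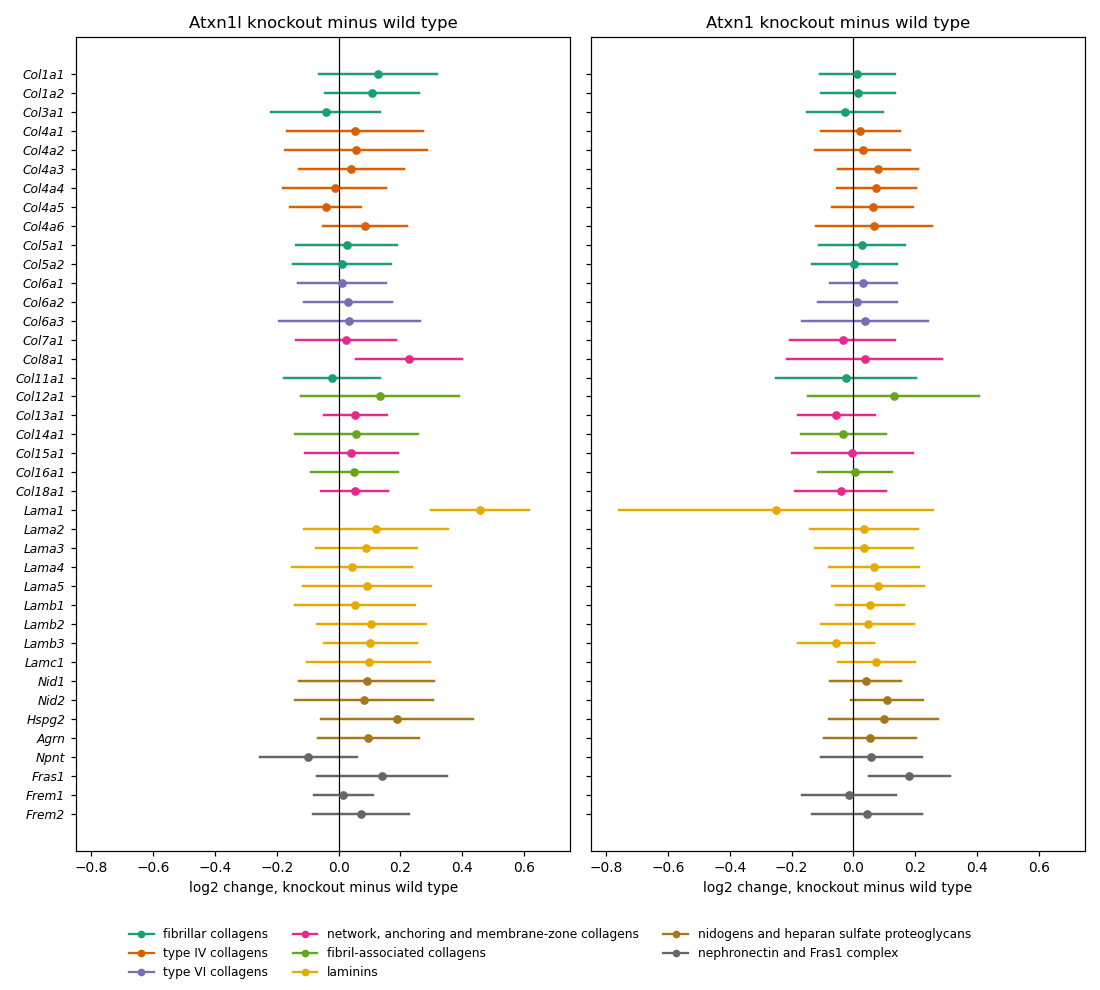
Log2 change, knockout minus wild type (horizontal axis), of all 40 members (rows) for the Atxn1l knockout (left, 4 against 4 arrays) and the Atxn1 knockout (right, 3 against 3). Points are limma estimates, lines their 95% intervals and colours the structural class; most lines cross 0, and Lama1 stands to the right of the others on the left (0.46) and to the left of them on the right (-0.25).

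Among the laminins, Lama1 stood apart. It encodes the alpha-1 chain, the laminin alpha chain of the early embryo and of few adult basement membranes. On the Atxn1l knockout arrays it was at 8.15, 8.28, 8.40 and 8.38, and on their wild types at 7.80, 7.75, 7.85 and 7.98. Each of these levels was below the median of all probe sets on its array (8.44 to 8.53), though not among the dimmest 25% left out in one setting. All 4 knockouts lay above all 4 wild types. Such separation upward was found for this 1 member of 40, against 2.76% of all probe sets, and downward for 0 of 40, against 2.56%. The log2 change was 0.46 (SE 0.07, 95% interval 0.30 to 0.62), a 1.37-fold higher level, which did not pass over all genes (limma, unadjusted p = 7.58e-05, adjusted p = 0.124). The threshold was passed when knockout replicate 1 was left out (0.51, adjusted p = 0.0425), when wild type replicate 4 was (0.50, adjusted p = 0.0443) and with array weights (0.48, adjusted p = 0.0470). In the other settings the adjusted p lay between 0.0565 and 0.448. The macrophage and neutrophil markers moved with the same groups, at 9.49 to 10.17 against 9.19 to 9.30 and at 8.83 to 10.81 against 7.94 to 8.81, and their part in the Lama1 difference was not tested. Knockout replicate 1 had the highest level of both lists and the lowest Lama1 level of the knockouts. It was also the only one of them with a low level of Xist, a transcript of the inactive X chromosome (7.04, against 13.09 to 13.24). With an Xist covariate the Lama1 change was 0.41 (limma, adjusted p = 0.0565).

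On the Atxn1 arrays Lama1 was at 8.52, 8.54 and 8.71 in knockouts and at 8.71, 8.45 and 9.36 in wild types. Wild type replicate 3 was far above the rest and the groups overlapped, with a log2 change of -0.25 (SE 0.21, adjusted p = 1.00). Without that array the change was 0.01, so the sign rested on it. With array weights the change was -0.69 (limma, adjusted p = 0.138), but that fit leaned on the same array. Its weight was 6.38, against 0.16 and 0.46 for the other wild types. Wild type replicate 3 also had a neutrophil marker level of 11.22, against 8.92 to 9.63 on the other arrays of the set, and a heart muscle marker level of 10.71, against 9.44 to 10.61. The part of these markers in its Lama1 level was not tested. It was the only wild type of this set with a high Xist level (13.04, against 6.89 and 6.94). With an Xist covariate the Lama1 change was -0.39. The difference between the knockouts, tested by limma in 1 fit of all 14 arrays, was 0.71 for Lama1 (SE 0.22, unadjusted p = 0.00603, adjusted p = 1.00). The value was 0.45 (adjusted p = 0.998) without wild type replicate 3. With array weights it was 1.12 (adjusted p = 0.105), in a fit that gave that array a weight of 5.10. Lama1 was the only member at an unadjusted p under 0.05 for this difference (2.50% of members, against 1.74% of all probe sets higher, with 0 members lower against 1.5% of all), and no member was called, against 0.0% of all probe sets called higher and 0.00943% called lower. The difference lay above 0 for 28 of 40 members, against 53.5% of all probe sets, and for 19 of 40, against 8908 of 21212 probe sets, with each array centred on its median, where 261 probe sets were higher and 544 lower at that p, against 369 and 319 without centring.

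**Figure D2:**
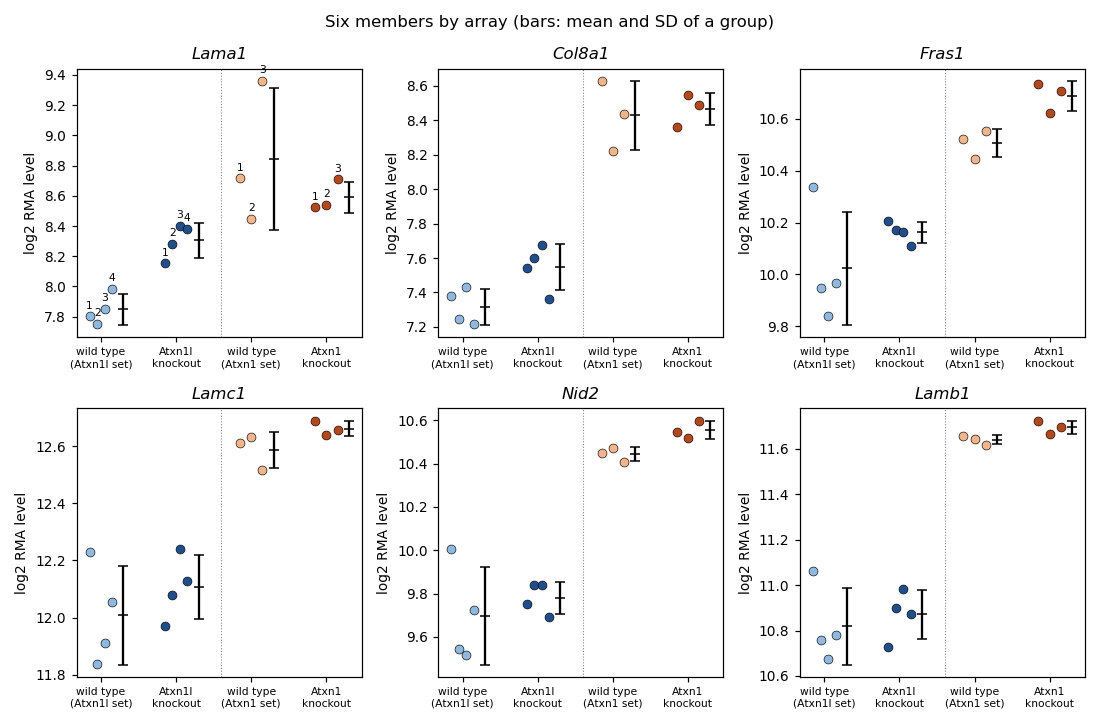
Log2 RMA level (vertical axis) of Lama1, Col8a1, Fras1, Lamc1, Nid2 and Lamb1 on each array (points), by group (horizontal axis); bars give the group mean and SD, and numbers beside Lama1 points are replicates. The sets left and right of the dotted line were normalised apart, so levels compare only within a set: the 4 Atxn1l knockouts lie above their wild types for Lama1, and the 3 Atxn1 knockouts lie above theirs for Fras1, Lamc1, Nid2 and Lamb1.

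The other alpha chains did not share the size of the Lama1 difference in the Atxn1l knockout. Lama2, the chain of muscle and mesenchymal basement membranes, had a log2 change of 0.12 (95% interval -0.11 to 0.35). Lama3, the epithelial chain of laminin-332, had 0.09. Lama4, found in vessel walls, had 0.04, and Lama5, the main alpha chain of mature epithelial and endothelial basement membranes, 0.09. All of the intervals included 0. The chains that combine with them were as close to 0: Lamb1 had 0.05, Lamb2 0.11, Lamb3 0.10 and Lamc1, the gamma chain of most laminins, 0.10. As a class, 9 of 9 laminins had a change above 0 without Atxn1l, and the median was 0.10. Without Atxn1 the count was 7 of 9 and the median 0.05. Genes of a class share arrays, so such counts are given as a description. The mean of the laminins was 10.53 to 10.72 on Atxn1l knockout arrays and 10.35 to 10.69 on their wild types. Class means overlapped between knockouts and wild types for every class of members in both sets.

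In 4 members all 3 Atxn1 knockouts lay above all 3 of their wild types (4 of 40, against 2.85% of all probe sets), and 0 had all knockouts below (1.9% of all). They were Fras1, Nid2, Lamc1 and Lamb1. None passed over all genes (adjusted p = 1.00 for each). The alveolar type 1 markers separated the same groups, at 12.32 to 12.34 against 12.24 to 12.27, as did the erythroid markers, at 11.36 to 11.61 against 11.00 to 11.31, and their part in these values was not tested. Fras1, whose product holds epithelium to the mesenchyme beneath it, was at 10.73, 10.62 and 10.71 in knockouts and at 10.52, 10.45 and 10.55 in wild types. Its log2 change of 0.18 (SE 0.06, 95% interval 0.05 to 0.31, unadjusted p = 0.0142 by limma) was the highest of any member in this knockout. In the Atxn1l set Fras1 was at 10.21, 10.17, 10.16 and 10.11 in knockouts and at 10.34, 9.95, 9.84 and 9.97 in wild types. There wild type replicate 1 lay above every knockout, and the change was 0.14 (SE 0.09), or 0.24 (adjusted p = 0.405) without that array.

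Lamc1 was at 12.69, 12.64 and 12.66 in Atxn1 knockouts and at 12.61, 12.63 and 12.52 in their wild types, a change of 0.07 (SE 0.05). The gap between the lowest knockout and the highest wild type was within the spread of either group. Nid2, a nidogen that links laminin to type IV collagen, was at 10.55, 10.52 and 10.60 against 10.45, 10.47 and 10.41, a change of 0.11 (SE 0.05, 95% interval -0.01 to 0.23). Lamb1 was at 11.72, 11.66 and 11.70 against 11.66, 11.64 and 11.62, a change of 0.06 (SE 0.05). Its lowest knockout (11.664) and highest wild type (11.6555) also lay closer than the spread of either group. In the Atxn1l set the groups overlapped for all 3 genes, with log2 changes of 0.10, 0.08 and 0.05 in the order given.

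Nidogens and heparan sulfate proteoglycans were above 0 in 4 of 4 genes in both knockouts, with medians of 0.09 in the Atxn1l and 0.08 in the Atxn1 knockout. Hspg2, which encodes perlecan, had log2 changes of 0.19 (95% interval -0.06 to 0.44) and 0.10 (-0.08 to 0.27). Agrn, encoding agrin, had 0.10 and 0.05, and Nid1 had 0.09 and 0.04. Of the genes that tie epithelium to this sheet, Npnt, a ligand of integrin alpha8 beta1, had the lowest change of any member in the Atxn1l knockout, -0.10 (95% interval -0.25 to 0.06), and 0.06 in the Atxn1 knockout. Frem1 and Frem2, partners of Fras1 in a shared complex, had 0.01 and 0.07 in the Atxn1l knockout and -0.01 and 0.04 in the Atxn1 knockout.

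Type IV collagens were near 0 in both knockouts: 4 of 6 chains lay above 0 without Atxn1l (median 0.05) and 6 of 6 without Atxn1 (median 0.06). Col4a1, with Col4a2 the collagen IV of most basement membranes, was at 10.79, 11.04, 11.04 and 11.07 in Atxn1l knockouts and at 11.19, 10.91, 10.73 and 10.90 in their wild types. Col4a2 was at 10.96, 11.20, 11.24 and 11.11 against 11.37, 10.99, 10.88 and 11.05. For both chains wild type replicate 1 was the highest array of the set and wild type replicate 3 the lowest, and the changes were 0.05 (95% interval -0.17 to 0.27) and 0.06 (-0.17 to 0.29). The Atxn1 set had Col4a1 at 11.55, 11.44 and 11.52 against 11.47, 11.53 and 11.45, and Col4a2 at 11.64, 11.50 and 11.64 against 11.54, 11.64 and 11.50. The groups overlapped, with changes of 0.02 and 0.03.

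Col4a3 and Col4a4 form, with Col4a5, the network of the glomerular and alveolar basement membranes. In the Atxn1l set Col4a3 was at 9.52, 9.74, 9.84 and 9.76 in knockouts and at 9.81, 9.65, 9.57 and 9.67 in wild types, and Col4a4 at 9.21, 9.44, 9.47 and 9.49 against 9.47, 9.50, 9.27 and 9.42. Knockout replicate 1 was the lowest array for both chains, and the changes were 0.04 and -0.01. For the Atxn1 mice Col4a3 was at 10.32, 10.22 and 10.25 against 10.20, 10.22 and 10.12, and Col4a4 at 9.83, 9.70 and 9.77 against 9.68, 9.73 and 9.66. The changes there were 0.08 and 0.07, with overlapping groups.

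Col4a5 and Col4a6 are X-linked, and both sexes were present in every group by the level of Xist, which is transcribed from the inactive X chromosome. Xist was at 7.04, 13.18, 13.09 and 13.24 in Atxn1l knockouts and at 6.32, 6.59, 13.25 and 13.29 in their wild types. In the Atxn1 set it was at 6.83, 12.97 and 13.07 against 6.89, 6.94 and 13.04. The sexes were thus not in equal shares in knockouts and wild types of either set. Col4a5 was at 8.65, 8.67, 8.77 and 8.64 in Atxn1l knockouts against 8.74, 8.81, 8.67 and 8.69, and Col4a6 at 7.61, 7.81, 7.75 and 7.64 against 7.64, 7.66, 7.67 and 7.50. The Atxn1 set had Col4a5 at 9.45, 9.47 and 9.42 against 9.46, 9.37 and 9.32, and Col4a6 at 8.39, 8.45 and 8.41 against 8.52, 8.29 and 8.24. All of these groups overlapped. The log2 changes were -0.04 and 0.09 in the Atxn1l knockout and 0.06 and 0.07 in the Atxn1 knockout.

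None of the fibrillar collagens of the septal wall was called or lay apart between groups. Col1a1 and Col1a2, the chains of type I collagen, were at 11.91, 12.07, 12.30 and 12.03 and at 11.83, 11.98, 12.10 and 11.88 in Atxn1l knockouts. Their wild types were at 12.06, 11.80, 11.98 and 11.96 for Col1a1 and at 11.93, 11.75, 11.84 and 11.83 for Col1a2. Knockout replicate 3 was highest for both, and the changes were 0.13 (95% interval -0.06 to 0.32) and 0.11 (-0.04 to 0.26), with overlapping groups. Col3a1, type III collagen, was at 10.60, 10.89, 11.00 and 10.82 against 10.94, 10.87, 10.84 and 10.83, a change of -0.04 (-0.22 to 0.13). As a class the 6 fibrillar chains had medians of 0.02 in the Atxn1l and 0.01 in the Atxn1 knockout, with 4 of 6 above 0 in each.

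Among the Atxn1 mice Col1a1 was at 12.46, 12.50 and 12.46 in knockouts and at 12.52, 12.44 and 12.41 in wild types. Col1a2 was at 12.26, 12.24 and 12.26 against 12.29, 12.25 and 12.18, and Col3a1 at 11.73, 11.65 and 11.75 against 11.70, 11.78 and 11.72. The groups overlapped for each chain. The intervals were narrow here: -0.11 to 0.13 for Col1a1, -0.11 to 0.13 for Col1a2 and -0.15 to 0.10 for Col3a1.

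Col8a1, a short-chain collagen of vessel walls, was the second member at an unadjusted p under 0.05 in the Atxn1l knockout. It was at 7.54, 7.60, 7.68 and 7.36 in knockouts and at 7.38, 7.24, 7.43 and 7.22 in wild types. These levels were below the array medians of 8.44 to 8.53. Knockout replicate 4 lay within the wild types and the other 3 above them. The change was 0.23 (SE 0.08, 95% interval 0.06 to 0.40, unadjusted p = 0.0141, adjusted p = 0.475 by limma). Its levels on the Atxn1 arrays were 8.36, 8.55 and 8.49 against 8.63, 8.22 and 8.44, with a change of 0.04 (SE 0.11) and overlapping groups. The difference between the knockouts was 0.19 (95% interval -0.10 to 0.48), which includes 0.

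The remaining collagens kept close to 0. With Col8a1, the network, anchoring and membrane-zone chains (Col7a1 of anchoring fibrils, Col13a1 with its membrane anchor, and Col15a1 and Col18a1 of the basement membrane zone) were above 0 in 5 of 5 genes without Atxn1l (median 0.05) and in 1 of 5 without Atxn1 (median -0.04). Type VI collagen, which forms beaded filaments near basement membranes, had medians of 0.03 in both, with 3 of 3 chains above 0 in each. The chains that sit on fibrils, Col12a1, Col14a1 and Col16a1, had medians of 0.06 and 0.01. Col12a1 had the widest interval of these, -0.12 to 0.39 in the Atxn1l and -0.15 to 0.41 in the Atxn1 knockout.

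Other genes of the pathway were counted from lists written with earlier results of these data known, and no gene of them passed the threshold in either knockout. The counts at an unadjusted p under 0.05 stand beside 4.54% of all probe sets higher and 3.95% lower in the Atxn1l knockout, and 0.75% and 0.467% in the Atxn1 knockout. Of 33 genes of collagen modification and crosslinking, 23 were above 0 in the Atxn1l knockout, with 2 higher and 2 lower at that p, near the share of all probe sets in each direction. They were P4ha3, a prolyl hydroxylase subunit (0.20), Lox, which oxidises lysines for crosslinks (0.22), Colgalt2, a collagen galactosyltransferase (-0.24), and Tll1, a procollagen proteinase (-0.16). In the Atxn1 knockout 22 of 33 were above 0, with 0 at that p in either direction. Of 18 collagen and laminin receptors, Cd44 had 0.18 (unadjusted p = 0.0174) in the Atxn1l knockout and Rpsa, which encodes a ribosomal protein also described as a laminin receptor, -0.15 (unadjusted p = 0.0185) in the Atxn1 knockout, by limma. These were the only receptors at an unadjusted p under 0.05.

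Of 11 leucine-rich proteoglycans on collagen fibrils, 3 were at an unadjusted p under 0.05 in the Atxn1l knockout: Fmod, fibromodulin (0.26, 95% interval 0.12 to 0.40), Ogn, osteoglycin (-0.26), and Aspn, asporin (-0.32). In the Atxn1 knockout they had 0.03, -0.07 and 0.07, and 0 of 11 were at that p. Among 21 other collagen chains, 1 was, Col6a4 in the Atxn1l knockout (0.24, 95% interval 0.08 to 0.40), and medians were 0.04 and 0.00. Of 22 measured other basement membrane genes, Ecm1 (0.20) and Ntn1, netrin-1 (-0.19), were at that p in the Atxn1l knockout and 0 in the Atxn1 knockout, where Ntn4, a netrin that binds laminin, had 0.14 (95% interval -0.00 to 0.28).

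Array by array, many members were high or low together. In the Atxn1l set wild type replicate 1 was the highest array for 16 of 40 members and knockout replicate 3 for 14, and wild type replicate 3 was the lowest for 15. The mean of the 40 members was 10.27 on wild type replicate 1, against 10.05 to 10.11 on the other wild types, and 10.28 on knockout replicate 3, against 10.09, 10.22 and 10.18 on knockout replicates 1, 2 and 4. The endothelial marker mean was also highest on that wild type, at 12.45, against 12.20 to 12.36 on the other arrays of the set, and was 12.29 on knockout replicate 3. The smooth muscle and pericyte markers were highest on knockout replicate 3 (11.00) and wild type replicate 1 (10.97) and lowest on knockout replicate 1 and wild type replicate 2 (10.71 each). The part of either list in the member levels was not tested. Without wild type replicate 1 the member median was 0.12 and 12 of 40 members were higher at an unadjusted p under 0.05, with 948 of 21212 probe sets higher and none of the members called. Without knockout replicate 1 the median was 0.10, with 2 members and 768 of 21212 probe sets higher at that p, and without knockout replicate 3 it was 0.03.

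In the Atxn1 set knockout replicate 1 was highest for 17 members and wild type replicate 1 for 15, and wild type replicate 3 was lowest for 22. Without wild type replicate 3 the member median was 0.01 and 24 of 40 lay above 0, and without knockout replicate 1 these were also 0.01 and 24. Over all 780 pairs of members the median Pearson r of deviations from group means was 0.58 in the Atxn1l set (8 arrays) and 0.39 in the Atxn1 set (6 arrays). These pairs share arrays and normalization and are given as a description. The median r of Lama1 with the other 39 members was 0.25 in the Atxn1l set, where Col11a1 (-0.26), Col7a1 (-0.16), Col13a1 (-0.13), Col16a1 (0.20), Col8a1 (0.22) and Col18a1 (0.22) were lower, and 0.43 with each array centred on its median. In the Atxn1 set it was -0.45.

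**Figure D3:**
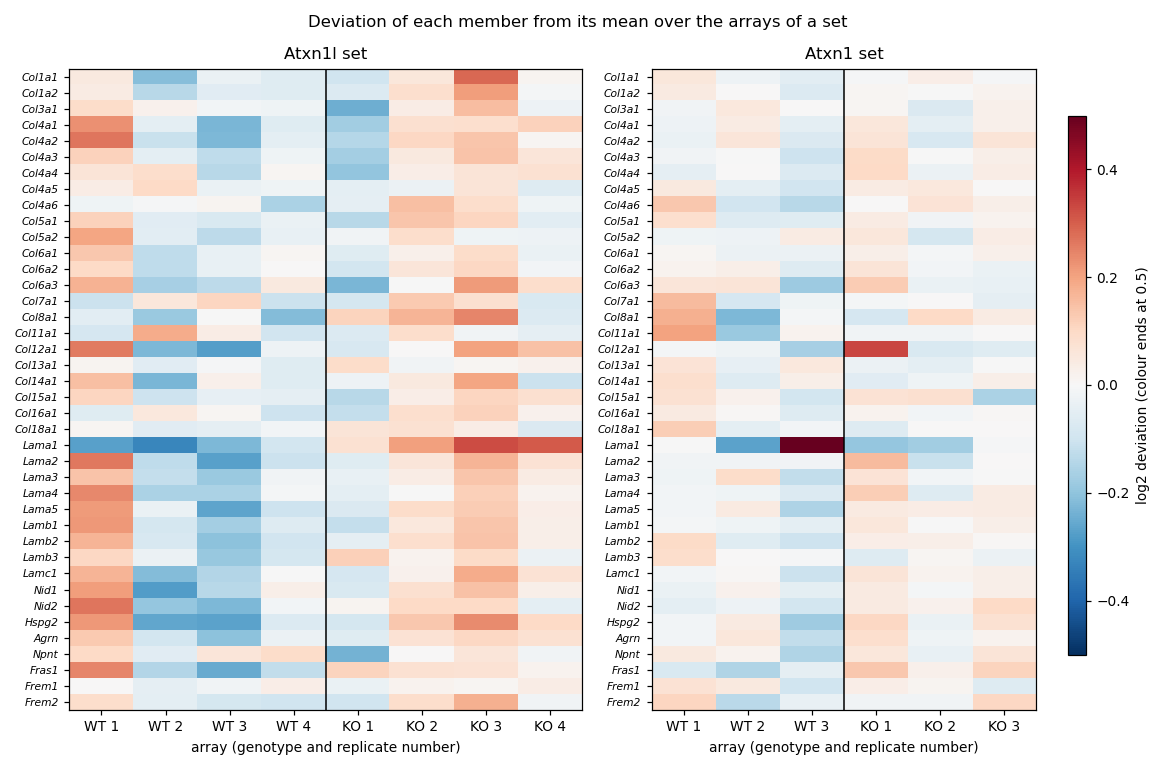
Deviation (colour, log2 scale) of each of the 40 members (rows) from its mean over the arrays of a set, by array (columns: WT wild type, KO knockout, with replicate number; 8 arrays left, 6 right). Columns of 1 colour show arrays where most members shift together, such as wild type replicate 1 of the Atxn1l set, and the Lama1 row departs from its neighbours, with its darkest cell on wild type replicate 3 of the Atxn1 set.

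Chains that join in 1 protein or share a promoter region, and the nidogens, were compared in 7 pairs in each set, 14 relations in all. Deviations were taken from group means and permuted within groups. For r without 2 arrays, those farthest from the median deviation of the first gene were left out. The group means of all arrays were kept for these values, and leaving out extreme arrays tends to lower r. In the Atxn1l set Col1a1 and Col1a2 correlated at r = 0.97 (exact permutation p = 0.00174, the smallest possible within groups of 4, adjusted p = 0.0243) and rho = 0.93 (exact permutation p = 0.00347, adjusted p = 0.0243), and at r = 0.92 without knockout replicates 1 and 3. Col6a1 and Col6a2 correlated at r = 0.97 (exact permutation p = 0.00347, adjusted p = 0.0243) and rho = 1.00 (exact permutation p = 0.00347, adjusted p = 0.0243), and at 0.96 without wild type replicates 1 and 2. For Lamb1 and Lamc1 r was 0.90 (exact permutation p = 0.0104, adjusted p = 0.0486) and rho 0.83 (exact permutation p = 0.0208, adjusted p = 0.0729), with r at 0.63 without knockout replicate 3 and wild type replicate 1. These 3 relations passed by r after adjustment, and with each array centred on its median Nid1 and Nid2 in the Atxn1l set did as well (r = 0.91, exact permutation p = 0.0139, adjusted p = 0.0486). The permutations set r against 0, not against the r of other members. The median r with the other 39 members there was 0.60 for Col1a1, 0.65 for Col1a2, 0.77 for Col6a1 and 0.76 for Col6a2. It was 0.84 for Lamb1, 0.75 for Lamc1, 0.73 for Nid1 and 0.69 for Nid2. Whether paired genes correlate more than other members was not tested.

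Col4a1 and Col4a2, the pair with the shared capitals above, correlated at r = 0.94 in the Atxn1l set (exact permutation p = 0.0191, adjusted p = 0.0668) and rho = 0.90 (exact permutation p = 0.0208, adjusted p = 0.0729). In the Atxn1 set r was 0.98 (exact permutation p = 0.0278, the smallest possible within groups of 3, adjusted p = 0.0694) and rho 1.00 (exact permutation p = 0.0278, adjusted p = 0.0778). Without the 2 arrays farthest out r was 0.82 and 0.94. Col4a5 and Col4a6, whose windows do not overlap, had r = 0.44 in the Atxn1l set (exact permutation p = 0.332, adjusted p = 0.387) and rho = 0.21 (exact permutation p = 0.616, adjusted p = 0.664), with r = 0.37 without 2 arrays. In the Atxn1 set they had r = 0.94 (exact permutation p = 0.0833, adjusted p = 0.117) and rho = 0.83 (exact permutation p = 0.139, adjusted p = 0.214). There r was 0.52 without wild type replicates 1 and 3, the arrays farthest out for Col4a5. Too few wild types remained to tell whether the relation rested on those arrays. In the Atxn1l set the median r with the other 39 members was 0.725 for Col4a1, 0.838 for Col4a2, 0.288 for Col4a5 and 0.254 for Col4a6. In the Atxn1 set these medians were 0.465, 0.470, 0.463 and 0.372. The difference in r between these pairs was not tested.

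Col4a3 and Col4a4 had r = 0.85 in the Atxn1l set (exact permutation p = 0.0330, adjusted p = 0.0694; rho = 0.62, p = 0.153, adjusted p = 0.214) and 0.87 in the Atxn1 set (exact permutation p = 0.0833, adjusted p = 0.117; rho = 0.89, p = 0.0833, adjusted p = 0.167), and 0.74 and 0.88 without 2 arrays. Nid1 and Nid2 had r = 0.89 (exact permutation p = 0.0347, adjusted p = 0.0694; rho = 0.81, p = 0.0451, adjusted p = 0.105) and 0.71 (exact permutation p = 0.194, adjusted p = 0.248; rho = 0.71, p = 0.222, adjusted p = 0.283), and 0.73 and 0.51 without 2 arrays. The remaining pairs of the Atxn1 set did not pass either. They were Col1a1 with Col1a2 at r = 0.76 (exact permutation p = 0.389, adjusted p = 0.419; rho = 0.43, p = 0.556, adjusted p = 0.648), Col6a1 with Col6a2 at 0.37 (exact permutation p = 0.556, adjusted p = 0.556; rho = 0.26, p = 0.750, adjusted p = 0.750) and Lamb1 with Lamc1 at 0.76 (exact permutation p = 0.0556, adjusted p = 0.0972; rho = 0.77, p = 0.111, adjusted p = 0.194). Without 2 arrays their r was 0.96, 0.25 and 0.28. For the laminins these were knockout replicate 2 and wild type replicate 3, picked as farthest out for Lamb1. Whether that relation rested on them cannot be read from the lower r.

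**Figure D4:**
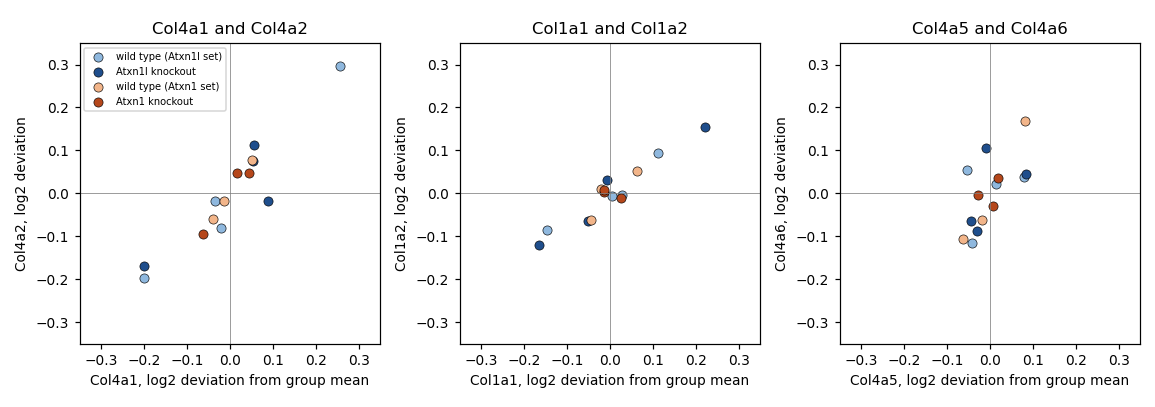
Deviation of each array from its group mean (log2 scale) for Col4a1 against Col4a2, Col1a1 against Col1a2 and Col4a5 against Col4a6; points are the 14 arrays, coloured by group. In the first 2 pairs r is 0.94 and 0.97 in the Atxn1l set, and r for Col4a5 and Col4a6 is 0.44 there. In the Atxn1 set r is 0.98, 0.76 and 0.94 for the 3 pairs in the order given.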

How the data were processed

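The authors deposited log2 RMA levels, 1 value per probe set of an Entrez gene and array, per the series text made apart for the 8 arrays of the Atxn1l set and the 6 of the Atxn1 set. RMA and limma are named in the submitters' processing notes, and no source used here names the probe set version. Separate normalization means that levels compare only within a set. No values were filtered or floored. The tool for changes was limma (version 3.58.1, R 4.3.3), two-sided and with no covariate, over all 21212 probe sets with Benjamini-Hochberg adjustment, and intervals are the fit's 95% intervals. The difference between knockouts was a contrast over all 14 arrays. The fit was first tested on simulated data. Of simulated log2 changes of 0.25, 13 of 67 were called in the Atxn1l design and 1 of 67 in the Atxn1 design. For changes of 0.5 these counts were 52 and 34 of 67, and for changes of 1 they were 63 of 66 in each. Most changes of 0.25 were thus missed there.

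The number of arrays limits the precision. Members and lists were chosen with earlier results of these data known. Values on every array are given for members at an unadjusted p under 0.05 or without overlap in either comparison, for Col1a1, Col1a2, Col3a1 and the type IV chains, and up to 4 genes of smallest p are named from each pathway list. Of 178 list memberships 175 were measured. Alternatives were a replicate block, a trended and robust prior, weights per array, leaving out the dimmest 25% of probe sets, joint quantile normalization, median centring, an Xist covariate and leaving out each array. Promoter windows are from RefSeq, GRCm38.p6.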

Additional observations from a re-analysis of the deposited data

Results flagged for a closer look

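Within groups of 4 arrays, 3 of 80 tested groups of members held an array far from the others by Dixon's criterion, where about 1 in 20 is expected by chance. Col4a1 on Atxn1l knockout replicate 1 was at 10.79, below the other knockouts at 11.04 to 11.07, and Col4a4 on the same array was at 9.21, below the others at 9.44 to 9.49. Col5a2 on Atxn1l knockout replicate 2 was at 9.91, above the others at 9.80 to 9.81. Groups of 3 were not tested in this way.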

How the results depend on the processing

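The number of called probe sets in the Atxn1l knockout was 2 with the replicate block, against 9 without it, and 2 to 25 without 1 array. For the Atxn1 knockout it was 1 with array weights, against 0, and 0 without any 1 array. For the difference between the knockouts it was 1 with the replicate block and 4 with array weights, against 2, and 1 to 2 without 1 array. Whether the replicate numbers mark the pairs of mice is unresolved: deviations of same-numbered arrays correlated at 0.04 to 0.38 in the Atxn1l set and at -0.42 to 0.42 in the Atxn1 set, and the same number was the closest partner for 2 of 4 and 1 of 3 numbers. With the replicate block 0 members were called in either knockout. The member median without 1 array ranged from 0.0308 to 0.124 in the Atxn1l knockout and from 0.006 to 0.0526 in the Atxn1 knockout. There array weights gave 0.0728, with the largest weight, 6.38, on wild type replicate 3. Of 441 values of named results under these settings, 15 had the other sign, for 10 results, none of them called. Array weights gave 0.0204 for Col3a1 and 0.0287 for Col4a4 in the Atxn1l knockout. Leaving out 1 array gave ranges of -0.0994 to 0.0333 for Col3a1, -0.0129 to 0.1393 for Col4a1, -0.0088 to 0.1555 for Col4a2 and -0.0597 to 0.0514 for Col4a4 in that knockout. In the Atxn1 knockout the ranges were -0.4465 to 0.0103 for Lama1, -0.0652 to 0.1353 for Col8a1, -0.0092 to 0.0452 for Col1a1, -0.0161 to 0.0406 for Col1a2, -0.0443 to 0.0036 for Col3a1 and -0.0003 to 0.0534 for Col4a1. The cause was not tested. The number of arrays limits the precision: standard errors of member changes were 0.04 to 0.11 in the Atxn1l knockout and 0.05 to 0.21 in the Atxn1 knockout.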
